A study of Mus musculus with 20 samples.

Results

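The genes described here are 10 genes of iron and heme handling in mouse bone marrow-derived macrophages (BMDM), which are macrophages grown from bone marrow cells with M-CSF. They are Hmox1, Fth1, Ftl1, Slc40a1, Tfrc, Slc11a1, Slc11a2, Aco1, Ireb2 and Ncoa4. The rule names these 10 genes and uses no measured value, although earlier results of these data were known when they were chosen. All 10 were among the 14456 genes listed in the deposited table. The table covers 20 RNA-seq libraries of total RNA, 4 in each of 5 groups, from wild-type C57BL/6 mice that were 8 weeks old. In the glucose experiment BMDM were kept for 24 h in high glucose (25 mM glucose) or in normal glucose (5.5 mM glucose with 19.5 mM mannitol, which evens out the osmolarity). In the exosome experiment naive BMDM received PBS, exosomes shed by BMDM cultured in normal glucose (BMDM–NG-exo) or exosomes shed by BMDM cultured in high glucose (BMDM–HG-exo), also for 24 h. Exosomes are small membrane vesicles that cells release. The 12 exosome libraries carry 4 dates, with 1 library of each group on each date. The methods give a separate exosome preparation for each sample, while the labels do not say whether the cultures of a group came from different mice, so that p-values measure the spread between these libraries only.

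The libraries held 34016445 to 56310712 recovered reads, with a median of 43311931. All 8 macrophage markers examined were listed, while none of 9 erythroid, 7 lymphocyte, 5 dendritic cell and 4 mast cell or basophil markers was. Of 9 neutrophil markers 5 were listed, and of 5 fibroblast or stromal markers 3 were listed, and none of these 8 passed the test in any comparison. The counts of the listed neutrophil markers summed to 165 to 378 in a library.

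Macrophages take iron in as transferrin through the transferrin receptor and as heme from engulfed red cells, store it in ferritin and send it out through ferroportin, the only known exporter of iron from mammalian cells. Heme oxygenase opens the heme ring and frees its iron. When iron is scarce, the iron regulatory proteins bind a hairpin in messenger RNA, the iron-responsive element, which blocks translation when it lies in the 5′ UTR and protects the message from decay when it lies in the 3′ UTR. Macrophages are the main site at which iron from old red cells is recycled.

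The hairpins of the 10 genes are shown because they divide the genes into those with the element before and those with it after the coding sequence. A script searched the UTRs of the GENCODE M21 transcripts (build GRCm38) for the letters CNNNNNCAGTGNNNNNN on the sense strand and kept those in which at least 4 of the 5 bases before the CAGTGN loop pair with the 5 bases after it, G-T pairs included. Matches to these letters stood in 5 of the 10 genes. The capitals mark the 6 bases of the loop in each 29-base stretch, written 5′ to 3′.
Fth1, 5′ UTR, chr19:9982732-9982760, plus strand: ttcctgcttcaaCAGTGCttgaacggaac
Ftl1, 5′ UTR, chr7:45459779-45459807, minus strand: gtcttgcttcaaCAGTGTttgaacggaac
Slc40a1, 5′ UTR, chr1:45925465-45925493, minus strand: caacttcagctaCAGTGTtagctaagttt
Tfrc, 3′ UTR, chr16:32631219-32631247, plus strand: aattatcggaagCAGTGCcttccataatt
Tfrc, 3′ UTR, chr16:32631598-32631626, plus strand: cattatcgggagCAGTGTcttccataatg
Tfrc, 3′ UTR, chr16:32631663-32631691, plus strand: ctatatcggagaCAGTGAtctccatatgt
Tfrc, 3′ UTR, chr16:32631710-32631738, plus strand: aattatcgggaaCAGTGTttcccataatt
Slc11a2, 3′ UTR, chr15:100395153-100395181, minus strand: agccatcagagcCAGTGTgtttctatggt

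The stems of Fth1, Ftl1, Slc40a1 and all 4 sites of Tfrc had 5 of 5 pairs, and that of Slc11a2 had 4 of 5. The same letters and pairing stood in the 5′ UTR of 134 of the 11577 listed genes with a coding transcript (1.16%) and in the 3′ UTR of 603 of them (5.21%). A match is a description of the sequence and not a measured site. No match was found in Hmox1, Slc11a1, Aco1, Ireb2 or Ncoa4, which says only that these letters and this pairing are not in the UTRs searched.

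The deposited values are counts divided by a size factor of the library and are called normalized counts below. The ferritin subunits were among the most abundant messages. Fth1, the heavy chain of ferritin with ferroxidase activity, took 0.714% to 0.843% of the reads of a library and ranked between 8 and 11 among the listed genes. Ftl1, the light chain, took 0.364% to 0.447% and ranked between 15 and 17. The lowest-ranked were Tfrc, at 0.00212% to 0.00367% of reads, and Slc11a2, at 0.00186% to 0.00282%. The 95% Wilson interval of the Slc11a2 share was at most 0.000347 percentage points wide, and such intervals cover counting error only. Per kilobase of annotated exon the order was the same in all 5 groups. It was Ftl1, Fth1, Hmox1, Slc11a1, Slc40a1, Ncoa4, Aco1, Ireb2, Tfrc and Slc11a2. In normal glucose, for example, Ftl1 stood at 116430 ± 6071 normalized counts per kilobase (SD, n = 4). Hmox1 stood at 4688 ± 246 and Tfrc at 166 ± 16.8. This order depends on the exon length given to each gene, which was 3469 bases for Fth1 and 1340 for Ftl1. Before that division Fth1 had more reads than Ftl1 in every group, with a mean ratio from 1.83 (PBS) to 1.94 (BMDM–NG-exo). The place of Ftl1 above Fth1 thus rests on these lengths. Whether they match the transcripts expressed was not tested, so the order does not rank numbers of messages.

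**Figure D1:**
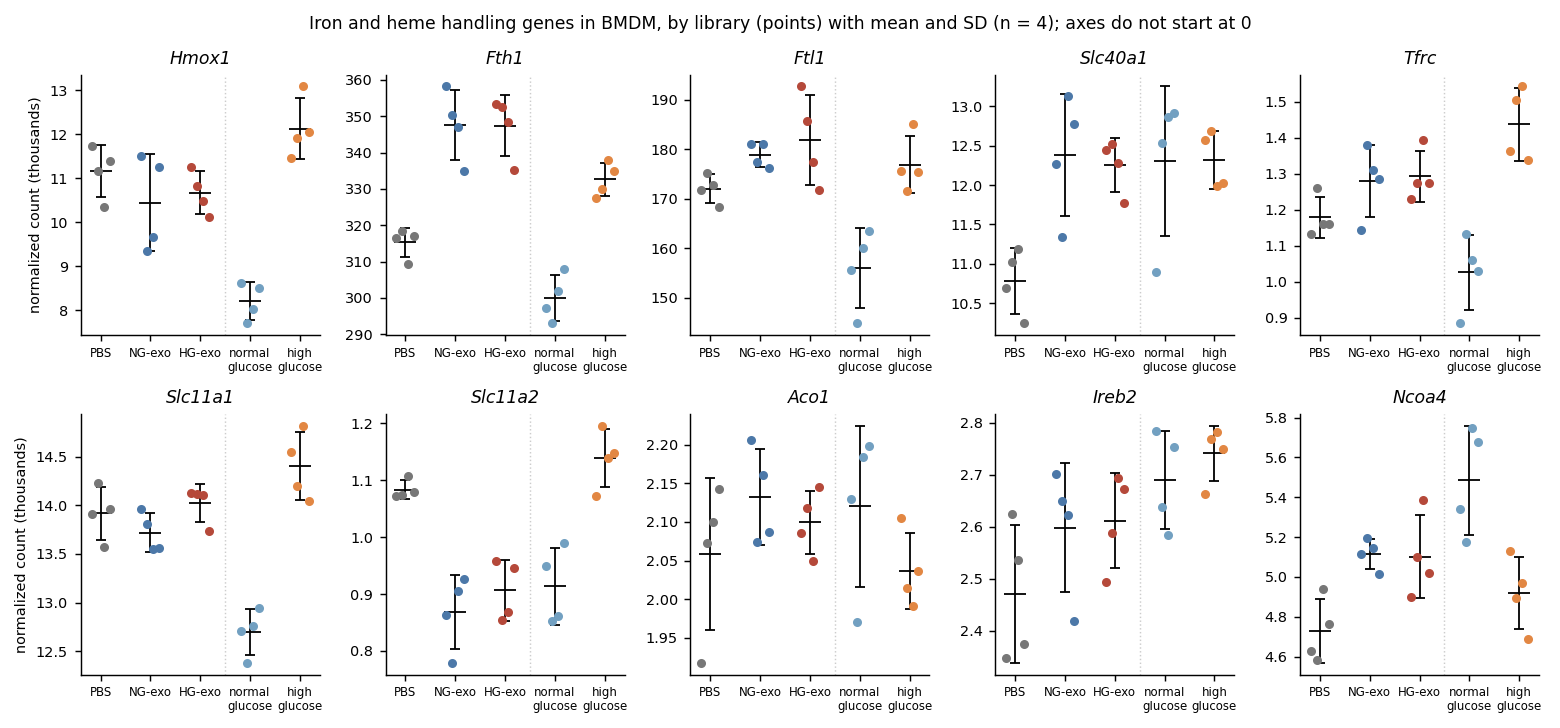
Normalized counts of each of the 10 genes in the 20 libraries (points) with the mean and SD of each group of 4. The axes do not start at 0, the dotted line separates the exosome from the glucose experiment, and the high glucose libraries lie wholly above those in normal glucose for Hmox1, Fth1, Ftl1, Tfrc, Slc11a1 and Slc11a2 and wholly below them for Ncoa4.

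Of the 10 genes, 7 differed between high and normal glucose, 6 being higher and 1 lower in high glucose. They span heme breakdown (Hmox1), uptake of transferrin iron (Tfrc), divalent metal transport (Slc11a2 and Slc11a1), storage (Fth1 and Ftl1) and the turnover of ferritin (Ncoa4). Called here means an adjusted p under 0.05 by limma on log2(normalized count + 1), with p-values adjusted by Benjamini-Hochberg over the 14425 genes in the fit. By that rule 13.3% of all genes were called, 7.74% as higher and 5.53% as lower (1116 and 798 genes, against 789 and 872 with quantile normalization). The median log2 fold change was 0.17 over the 10 genes and -0.0031 over all genes tested. The groups did not overlap for the same 7 genes, against 16.3% of all genes.

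Hmox1 (chr8:75093621-75100589, plus strand) encodes the inducible heme oxygenase, which breaks heme down to biliverdin, carbon monoxide and iron. Its normalized counts were 8623, 7696, 8015 and 8502 in the normal glucose libraries and 11464, 11917, 13093 and 12052 in the high glucose libraries. Every high glucose library was above every normal glucose library. The mean went from 8209 ± 431 (SD, n = 4) to 12132 ± 689, a 1.48-fold rise with a log2 fold change of 0.56 ± 0.04 (SE, adjusted p = 1.4e-12). Hmox1 had the largest change of the 10 genes in this fit, while with a block on shared replicate numbers Tfrc was at 0.50 and Hmox1 at 0.46.

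Tfrc (chr16:32608920-32632794, plus strand) encodes the transferrin receptor, which brings transferrin iron into the cell. It had 885, 1132, 1059 and 1031 normalized counts in normal glucose against 1364, 1505, 1542 and 1337 in high glucose. The groups did not overlap, and normal glucose replicate 1 was the lowest of the 20 libraries. The rise was 1.40-fold, with a log2 fold change of 0.49 ± 0.07 (SE, adjusted p = 4.6e-06).

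Slc11a2 (chr15:100387898-100425072, minus strand) encodes DMT1, which carries ferrous iron out of endosomes after uptake with transferrin. Gm5475, on the opposite strand, overlaps its exons and was not listed. The normal glucose libraries had 949, 852, 862 and 990 normalized counts, and the high glucose libraries 1072, 1196, 1140 and 1148 in high glucose. All 4 high glucose values were higher, and the log2 fold change was 0.32 ± 0.07 (SE, 1.25-fold, adjusted p = 0.0014). Slc11a1 (chr1:74375195-74386062, plus strand) encodes NRAMP1, the divalent metal transporter of the phagosome membrane. It had 12704, 12383, 12762 and 12947 normalized counts in normal glucose against 14548, 14192, 14817 and 14042 in high glucose. These groups were also apart, by a smaller step of 0.18 ± 0.03 (SE, 1.13-fold, adjusted p = 0.000206).

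The ferritin subunits rose by a similar small fold. Fth1 (chr19:9980598-9985098, plus strand) had 297337, 292970, 301821 and 307831 normalized counts in normal glucose against 327616, 330087, 337889 and 334885 in high glucose, a log2 fold change of 0.15 ± 0.03 (SE, 1.11-fold, adjusted p = 0.00127). Ftl1 (chr7:45457944-45459884, minus strand) had 155633, 144825, 160049 and 163557 in normal glucose against 175519, 171619, 185086 and 175374 in high glucose, a log2 fold change of 0.18 ± 0.04 (SE, 1.13-fold, adjusted p = 0.000331). For both genes each high glucose library was above each normal glucose library. Under quantile normalization, which handles the few most abundant genes by rank, Ftl1 was not called (log2 fold change 0.06, adjusted p = 0.42) and Fth1 was. Processed copies of the ferritin genes share sequence with them. The listed ones, Fth-ps2, Ftl1-ps1 and Ftl2-ps, reached at most 0.0229%, 0.208% and 0.618% of the reads of their parent gene, and none of these 3 passed the test in this comparison. Gm10252, on the opposite strand across Ftl1, held 184 to 412 reads, or 0.136% to 0.215% of the reads of Ftl1. It did pass, with a log2 fold change of 0.40 (adjusted p = 0.0413) in the same direction as Ftl1. Whether some of the Gm10252 reads came from Ftl1 was not tested. The reads were counted by strand. Gm22133, a gene annotated as microRNA on the same strand as Ftl1, overlaps an exon of Ftl1 by 109 bases and was not listed. Its effect on the Ftl1 count was not tested.

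Ncoa4 (chr14:32159865-32179855, plus strand) encodes the receptor that delivers ferritin to lysosomes, where its iron is released. It was the 1 of the 10 genes that was lower in high glucose. Its normalized counts were 5340, 5173, 5748 and 5680 in normal glucose against 5128, 4896, 4968 and 4690 in high glucose, so that the groups did not overlap, though the lowest normal glucose library (5173) and the highest high glucose library (5128) were close. The log2 fold change was -0.16 ± 0.04 (SE, adjusted p = 0.0118). Without normal glucose replicate 5 it was -0.13 (adjusted p = 0.0671) and without high glucose replicate 6 it was -0.13 (adjusted p = 0.0699), so the call for Ncoa4 rested on each of these libraries.

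The exporter and the iron regulatory proteins did not pass the test in high glucose. Slc40a1 (chr1:45908068-45926523, minus strand), which encodes ferroportin, had 10897, 12541, 12861 and 12912 normalized counts in normal glucose against 12578, 12685, 11984 and 12030 in high glucose. The log2 difference was 0.00, with a 95% interval from -0.08 to 0.09. Aco1 (chr4:40143081-40198338, plus strand) encodes iron regulatory protein 1, which is cytosolic aconitase when it holds an iron-sulfur cluster, and its log2 difference was -0.06 (95% interval -0.16 to 0.05). Ireb2 (chr9:54863789-54912530, plus strand) encodes iron regulatory protein 2 and its log2 difference was 0.03 (95% interval -0.07 to 0.12). Aco1 lay between 1917 and 2206 normalized counts and Ireb2 between 2347 and 2785 over the 20 libraries.

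In the exact two-sided permutation test of single genes, 4 libraries against 4 cannot give a p below 0.0286, which all 7 called genes reached. After adjustment over the 50 tests of 10 genes in 5 comparisons this became 0.0952, so that no gene passed by that test alone. The calls therefore rest on the limma fit, which shares the spread across genes. When the trend of the spread with the level was left out of limma, Fth1, Ftl1 and Ncoa4 were not called (adjusted p = 0.0687, 0.0974 and 0.142).

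Macrophage markers moved in the same comparison. Of the 8, Lyz2 (log2 fold change 0.42), Csf1r (0.35) and Adgre1 (0.10) were higher in high glucose, and Mertk (-0.40) and Cd68 (-0.15) were lower. The counts of the 8 markers summed to 632706 to 707063 in normal glucose and to 809706 to 879376 in high glucose. In bulk libraries more cells of a type and more RNA per cell cannot be told apart, and the part of the markers in the results on the 10 genes was not tested.

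Ratios of reads within 1 library do not depend on the scaling of the library. Tfrc had 3.42 ± 0.368 reads per 1000 reads of Fth1 (SD, n = 4) in normal glucose against 4.32 ± 0.288 in high glucose. The lowest high glucose library (3.99) was above the highest normal glucose library (3.86). Against Slc40a1 the separation was wider, from 83.4 ± 4.67 Tfrc reads per 1000 in normal glucose to 117 ± 9.06 in high glucose. The ratio of Fth1 to Ftl1 was 1.93 ± 0.0663 with normal and 1.88 ± 0.0443 with high glucose, and these values overlapped.

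**Figure D2:**
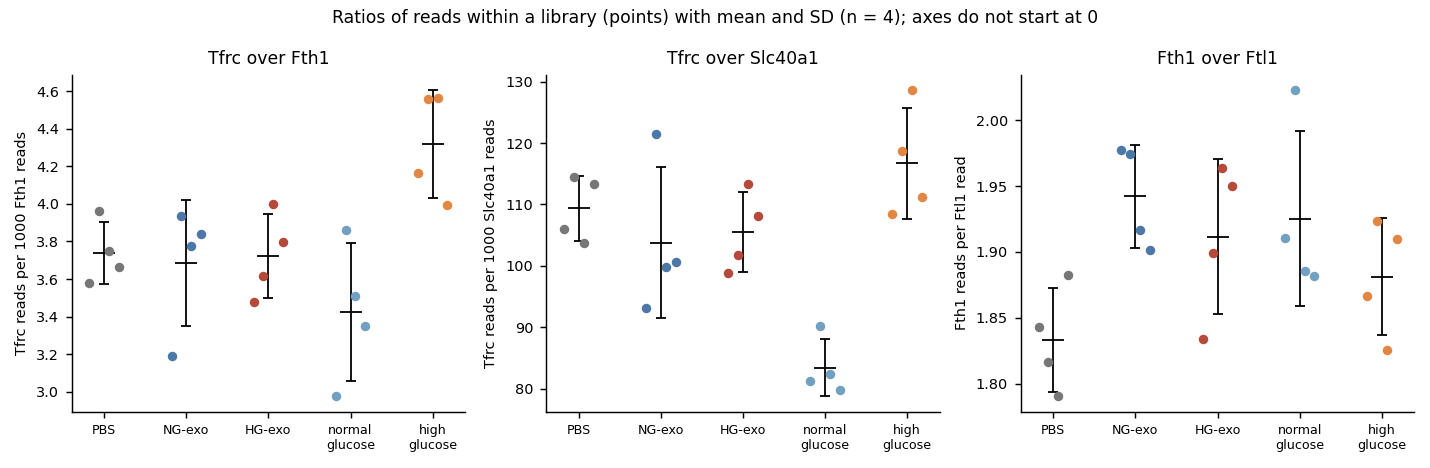
Ratios of reads within each library (points) with the mean and SD of each group of 4: Tfrc per 1000 Fth1 reads, Tfrc per 1000 Slc40a1 reads and Fth1 per Ftl1 read. The axes do not start at 0; for both Tfrc ratios the high glucose libraries lie above all normal glucose libraries, while for Fth1 per Ftl1 read they overlap.

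Beyond the 10 genes, 93 other genes of iron and heme biology were taken from lists, and 71 of them were listed in the table. In high glucose 11 of the 71 were higher and 5 lower by the same rule, or 16 in all, with a median log2 fold change of 0.06, where 7.74% of all genes were higher, 5.53% lower and 13.3% called. By list, 6 of 15 genes of heme transport, breakdown and its control were called, 4 of 14 of heme synthesis, 3 of 7 of iron storage, chaperones and systemic control, 2 of 13 of iron uptake, reduction, scavenging and export, and 1 of 22 of iron-sulfur cluster assembly.

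In heme transport, breakdown and its control 4 of the 15 genes were higher and 2 lower. Abcc1, which encodes a glutathione conjugate exporter, had 9676 to 10194 normalized counts in normal glucose against 13607 to 14067 in high glucose (log2 fold change 0.48 ± 0.03 SE, adjusted p = 6.2e-13). For Slc48a1, the heme exporter of the phagolysosome, the log2 fold change was 0.39 ± 0.04 (adjusted p = 3.2e-08). For Blvrb, a biliverdin reductase, it was 0.30 ± 0.04 (adjusted p = 2.3e-06). Bach1, the heme-binding repressor of Hmox1, was also higher (0.13, adjusted p = 0.0098) and lost its call without high glucose replicate 4 (adjusted p = 0.051). Flvcr1, described as a heme exporter of the cell surface, was lower (-0.19, adjusted p = 0.0044), as was Hebp1, a heme-binding protein (-0.37, adjusted p = 0.00498). Nfe2l2, whose product NRF2 activates Hmox1, was at 0.10 and did not pass (adjusted p = 0.0566). Hmox2, the constitutive heme oxygenase, was at 0.05 (adjusted p = 0.488).

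In heme synthesis Tmem14c (0.29, adjusted p = 0.000583) and the mitochondrial carrier Slc25a39 (0.21, adjusted p = 0.00222) were higher. So was Alas1, the first enzyme of heme synthesis (0.18, adjusted p = 0.0143), which lost its call without high glucose replicate 4 (adjusted p = 0.0833). Pcbp1, an iron chaperone that loads ferritin, was higher (0.21, adjusted p = 0.000904), and Picalm, an endocytic adaptor, was lower (-0.17, adjusted p = 0.00168). In iron-sulfur cluster assembly Nubp2 was higher (0.42, adjusted p = 0.000665). The other 4 called genes had larger p-values and are named after their values were seen. Pgrmc1, a heme-binding membrane protein, was lower (-0.19, adjusted p = 0.0336), as was Trf, which encodes transferrin (-0.41, adjusted p = 0.017). Fbxl5, the iron-sensing ubiquitin ligase subunit for iron regulatory protein 2 (0.18, adjusted p = 0.0257), and Herc2, a ubiquitin ligase (0.10, adjusted p = 0.0447), were higher. Of the 8 fits that left out 1 library, Pgrmc1 kept its call in 4, Trf in 5, Fbxl5 in 3 and Herc2 in 2. Fech, which inserts iron into the heme ring, was at -0.09 (adjusted p = 0.315) and Steap3, the endosomal ferrireductase, at 0.08 (adjusted p = 0.481).

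**Figure D3:**
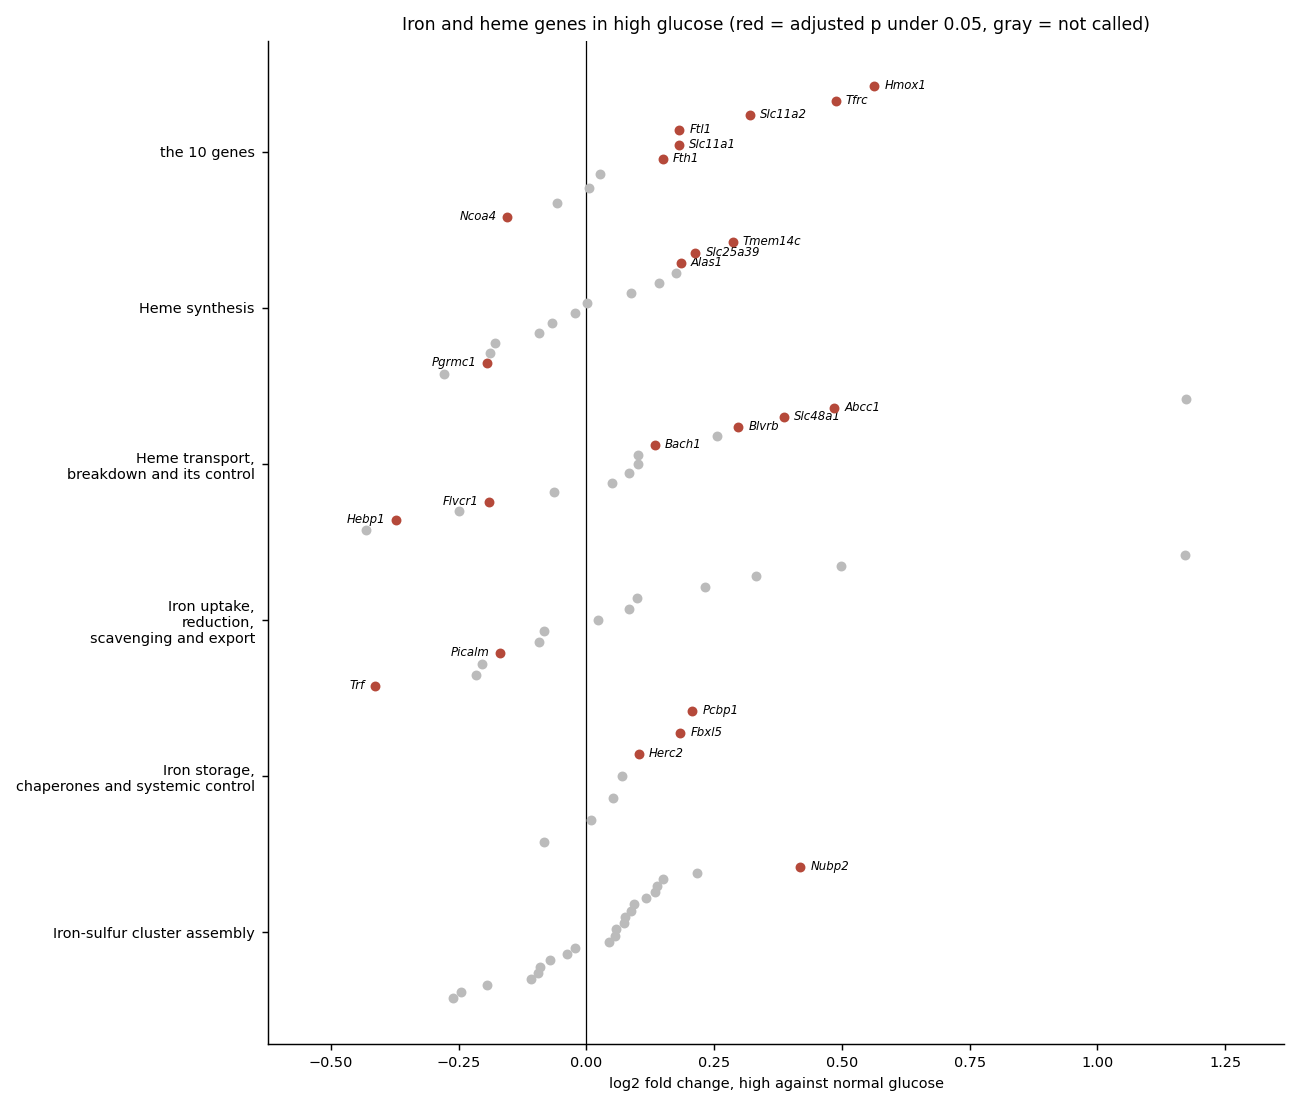
Log2 fold change between high and normal glucose of the 10 genes and of 71 other iron and heme genes by list, 1 point per gene. Red points, with names, passed the test, 7 of the 10 genes and 16 of the 71 others, and gray points did not.

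Against PBS, the exosomes of either kind went with more Slc40a1 and less Slc11a2. A call in the exosome experiment needs an adjusted p under 0.05 over 14413 genes and a log2 fold change of 0.15 or more in size, the limit the study set. The calls in high glucose had no such limit, so the numbers of calls in the 2 experiments follow unlike rules. With the limit, 6 of the 10 genes were called in high glucose, and Fth1, at 0.149, was not. With BMDM–HG-exo 2 of the 10 genes were called, against 4.84% of all genes (1.76% higher and 3.08% lower), and with BMDM–NG-exo 2 were called, against 3% of all genes (0.888% higher and 2.11% lower). In each case 1 gene was higher and 1 lower. The 2 comparisons share the 4 PBS libraries. Groups did not overlap for 3 of the 10 genes with BMDM–HG-exo (10% of all genes) and for 5 with BMDM–NG-exo (8.27% of all genes).

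Slc40a1 had normalized counts of 10687, 11020, 11190 and 10242 with PBS, of 12270, 11346, 13134 and 12772 with BMDM–NG-exo and of 12440, 12527, 12283 and 11767 with BMDM–HG-exo. Every exosome library was above every PBS library. The log2 fold change was 0.20 ± 0.04 for BMDM–NG-exo (SE, 1.15-fold, adjusted p = 0.0014) and 0.18 ± 0.04 for BMDM–HG-exo (SE, 1.14-fold, adjusted p = 0.00193). Without the trend in limma neither was called (adjusted p = 0.148 and 0.108). Between libraries of the same date the difference from PBS was positive on 4 of 4 dates for both, from 0.04 to 0.32 for BMDM–NG-exo and from 0.13 to 0.22 for BMDM–HG-exo.

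Slc11a2 had normalized counts of 1071, 1075, 1108 and 1079 with PBS, of 862, 779, 905 and 926 with BMDM–NG-exo and of 958, 854, 868 and 946 with BMDM–HG-exo. All 8 exosome libraries were below all 4 PBS libraries. The log2 fold change was -0.32 ± 0.07 for BMDM–NG-exo (SE, adjusted p = 0.00628) and -0.26 ± 0.07 for BMDM–HG-exo (SE, adjusted p = 0.0276). On all 4 dates the difference from PBS was negative for both kinds of exosomes. The call with BMDM–HG-exo was lost without any 1 of the PBS replicates (adjusted p = 0.0551, 0.0593, 0.0626 and 0.057 without replicates 1 to 4) and without BMDM–HG-exo replicate 2 (0.105) or 3 (0.0949), as well as without the trend (0.0605). The call with BMDM–NG-exo was lost without BMDM–NG-exo replicate 2 (adjusted p = 0.0511).

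The ferritin heavy chain had a small difference with the same sign for both kinds of exosomes. Fth1 had 316539, 318387, 309320 and 316931 normalized counts with PBS, 358202, 350329, 346896 and 334860 with BMDM–NG-exo and 353466, 352458, 348416 and 335151 with BMDM–HG-exo. The PBS libraries were below all 8 others. The log2 fold changes of 0.14 ± 0.03 for BMDM–NG-exo (SE, adjusted p = 0.00137) and 0.14 ± 0.03 for BMDM–HG-exo (SE, adjusted p = 0.000923) passed the adjusted p but lie under the limit of 0.15, so that Fth1 was not called. Without replicate 4 of BMDM–NG-exo or of BMDM–HG-exo, the fold change of Fth1 in the comparison with that group was 0.16 and passed the limit. Over 11 other settings of the fit it ranged from 0.03 to 0.14 for BMDM–NG-exo, with adjusted p up to 0.523. For BMDM–HG-exo it ranged from 0.06 to 0.14, with adjusted p up to 0.0829. The size of the Fth1 difference thus depended on the processing.

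The other genes did not pass the test against PBS. The log2 difference of Ftl1 was 0.06 for BMDM–NG-exo and of 0.08 for BMDM–HG-exo (adjusted p = 0.423 and 0.138). Ncoa4 had 0.11 for both (adjusted p = 0.153 and 0.138), with the BMDM–NG-exo libraries (5114, 5194, 5146 and 5016 normalized counts) above those with PBS (4629, 4585, 4941 and 4763). Hmox1 had -0.10 and -0.06 (adjusted p = 0.382 and 0.57), and its libraries overlapped, with 11727, 11164, 10339 and 11404 normalized counts for PBS, 11511, 9354, 9662 and 11266 for BMDM–NG-exo and 11263, 10828, 10482 and 10123 for BMDM–HG-exo. Tfrc, with 1133 to 1261 counts for PBS, 1143 to 1379 for BMDM–NG-exo and 1229 to 1393 for BMDM–HG-exo, had 0.12 and 0.13 (adjusted p = 0.494 and 0.322). In the same order Slc11a1 had -0.02 and 0.01 (adjusted p = 0.856 and 0.911). Aco1 had 0.05 and 0.03 (adjusted p = 0.753 and 0.844), and Ireb2 had 0.07 and 0.08 (adjusted p = 0.602 and 0.464).

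**Figure D4:**
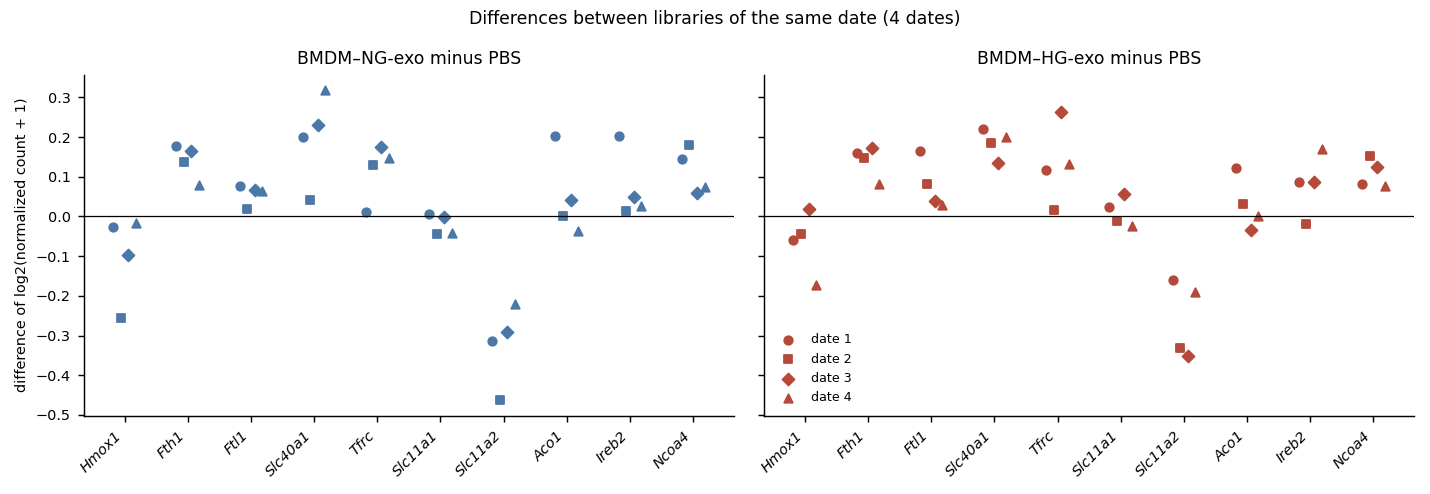
Difference of log2(normalized count + 1) from PBS between libraries of the same date, for BMDM–NG-exo (left) and BMDM–HG-exo (right), with 1 symbol for each of the 4 dates. For Slc40a1, Fth1, Ftl1, Tfrc and Ncoa4 all 4 dates lie above 0 and for Slc11a2 all 4 lie below 0 in both panels. Of these genes only Slc40a1 and Slc11a2 were called against PBS.

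No difference between the 2 kinds of exosomes was detected for the 10 genes. With BMDM–HG-exo against BMDM–NG-exo, 0 of the 10 genes were called by limma, and 0 had an unadjusted p under 0.05, where 0.0139% of all genes (2 genes, both lower) were called. The groups overlapped for all 10, while 3.86% of all genes did not overlap. The edgeR quasi-likelihood test and DESeq2 also called 0 of the 10. The 95% intervals of the 10 log2 differences lay between -0.13 (Aco1) and 0.21 (Slc11a2). With BMDM–HG-exo against PBS and BMDM–NG-exo combined, the contrast the study used, 0 of the 10 genes were called, against 0.201% of all genes (0.0694% higher and 0.132% lower, or 10 and 19 genes, against 9 and 10 with quantile normalization), and 0 had an unadjusted p under 0.05. edgeR and DESeq2 called 0 of the 10 there too. The groups overlapped for all 10 (1.17% of all genes did not overlap). The largest log2 difference in size in that contrast was -0.10 for Slc11a2 (95% interval -0.27 to 0.07).

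**Figure D5:**
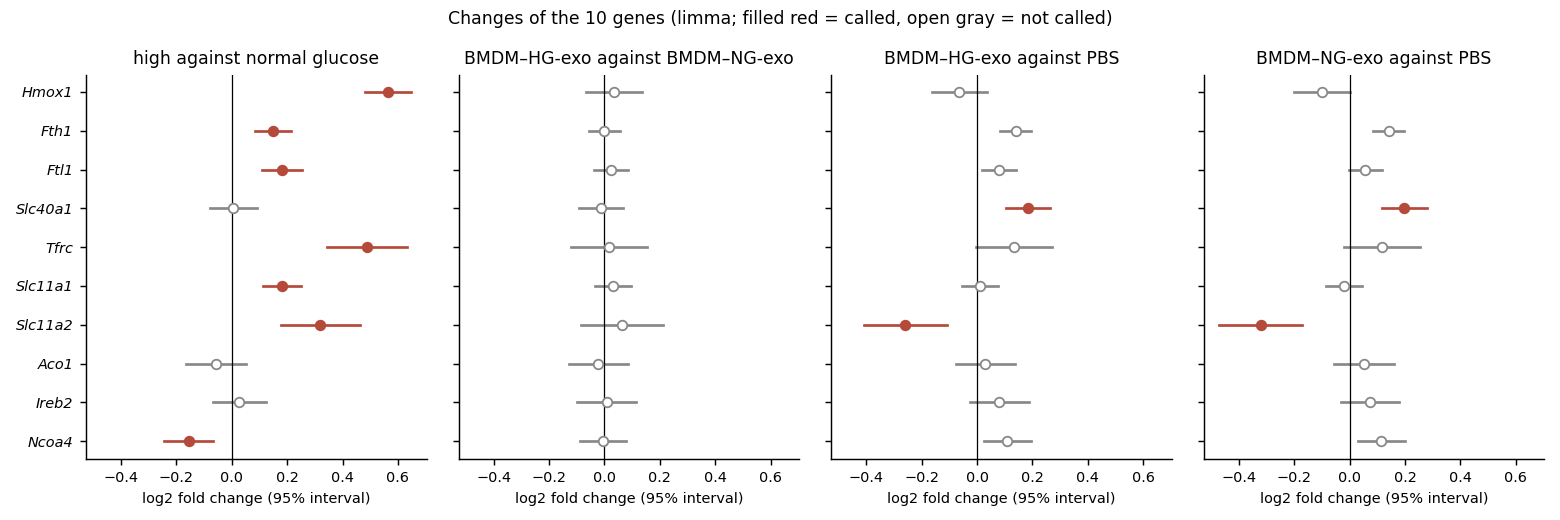
Log2 fold changes (points) of the 10 genes with 95% intervals (lines) in 4 comparisons, filled red where called. In high against normal glucose 7 are called, between the 2 kinds of exosomes none, and against PBS Slc40a1 (higher) and Slc11a2 (lower) with either kind. The exosome calls need a log2 fold change of at least 0.15 in size and the glucose calls have no such limit. With that limit 6 would be called in high glucose, without Fth1.

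Among the 71 other iron and heme genes, 6 were called with BMDM–HG-exo against PBS (4.84% of all genes) and 1 with BMDM–NG-exo (3% of all genes). Cp, which encodes the ferroxidase ceruloplasmin that works with ferroportin, was lower with both, at a log2 fold change of -1.71 ± 0.39 (SE, adjusted p = 0.00379) for BMDM–HG-exo and -1.45 ± 0.39 (SE, adjusted p = 0.0272) for BMDM–NG-exo. Its counts were low, 63 to 91 with PBS, 18 to 50 with BMDM–NG-exo and 10 to 38 with BMDM–HG-exo. The Cp call with BMDM–NG-exo was lost without PBS replicate 2 or 4 or BMDM–NG-exo replicate 1, 3 or 4 (adjusted p = 0.0515 to 0.106). With BMDM–HG-exo, Epas1, which encodes HIF-2 alpha, was higher (0.45, adjusted p = 0.00979), and Hfe (-0.25), Ppox (-0.30), Nubp2 (-0.32) and Bola2 (-0.30) were lower with adjusted p between 0.0189 and 0.0441. Leaving out BMDM–HG-exo replicate 1 ended the call for Epas1 (adjusted p = 0.0695), and between 4 and 5 single libraries each did so for Hfe, Ppox, Nubp2 and Bola2. Of the 71, 0 were called by limma, edgeR or DESeq2 in BMDM–HG-exo against BMDM–NG-exo (7 at an unadjusted p under 0.05 by limma) and 0 against the combined controls (13 at an unadjusted p under 0.05 by limma). DESeq2 gave no adjusted p for 37 of the 71 in the first of these and for 2 in the second, so that it could not call them. Of the 8 macrophage markers 4 were lower with either kind of exosomes than with PBS, Fcgr1, Itgam, Adgre1 and Csf1r with BMDM–HG-exo (log2 fold change -0.60, -0.38, -0.21 and -0.26). The counts of the 8 summed to 799008 to 844911 with PBS, 722583 to 779037 with BMDM–NG-exo and 739897 to 764333 with BMDM–HG-exo. Their part in these results was not tested.

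The change in high glucose was larger than the change between the 2 kinds of exosomes for 5 of the 10 genes, by an interaction test in 1 fit of all 20 libraries that called 4.74% of all genes (3.27% as higher and 1.47% as lower, or 472 and 213 genes, against 322 and 290 with quantile normalization). The difference of the log2 fold changes was 0.53 ± 0.07 for Hmox1 (SE, adjusted p = 1.5e-06) and 0.47 ± 0.10 for Tfrc (SE, adjusted p = 0.00211). It was 0.15 for Fth1 (adjusted p = 0.0188), 0.16 for Ftl1 (adjusted p = 0.0388) and 0.15 for Slc11a1 (adjusted p = 0.0335). Slc11a2 (0.26, adjusted p = 0.144) and Ncoa4 (-0.15, adjusted p = 0.145) did not pass. The calls for Fth1, Ftl1 and Slc11a1 ended with quantile normalization or without the trend, and Ftl1 then had a value of -0.05 under quantile normalization. The call for Slc11a1 also ended with the edgeR quasi-likelihood test (adjusted p = 0.0507). Leaving out 1 library ended the call for Fth1 for BMDM–NG-exo replicate 1 and BMDM–HG-exo replicate 4 (adjusted p = 0.0578 and 0.0552), for Ftl1 for 8 of the 20 libraries and for Slc11a1 for 7 of them. The calls for Hmox1 and Tfrc held without each of the 20 libraries.

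Across the 5 groups, as a description with no test between experiments, the mean of Hmox1 was highest in high glucose (12132), followed by PBS (11158 ± 593), BMDM–HG-exo (10674 ± 487), BMDM–NG-exo (10448 ± 1097) and normal glucose (8209), where neighbours overlapped except for normal glucose, which lay below all others. Tfrc followed the order high glucose (1437 ± 102), BMDM–HG-exo (1293 ± 70.4), BMDM–NG-exo (1280 ± 99.2), PBS (1179 ± 56.1) and normal glucose (1027 ± 104), with each neighbour overlapping the next save PBS and normal glucose. Slc11a2 was highest in high glucose (1139 ± 51.0) and PBS (1083 ± 16.6), which overlapped, and the other 3 groups had means from 868 to 913.

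Within groups, the genes most like each of the 10 across the 20 libraries, after the group means were removed, were found among 11718 listed genes with a mean of at least 50. These are descriptions of shared variation between libraries, which depth and library also shape. Each r is the highest over all of these genes, and the value that chance alone would give was not tested. Tfrc was most like Sh3glb1 (Pearson r = 0.91), Ncoa4 most like Adgre4 (0.88), Hmox1 most like Akr1a1 (0.87) and Fth1 most like Rps12 (0.87). Slc11a1 was most like Cd68 (0.82), a macrophage marker, and Ftl1 most like Npm3 (0.86). For Slc40a1, Slc11a2, Aco1 and Ireb2 the highest r was 0.79, 0.77, 0.77 and 0.81.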

How the data were processed

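Per the labels and the methods, total RNA libraries were made with a stranded SMARTer Pico kit, the authors trimmed the first bases of the second read, mapped to GRCm38 with STAR, counted reads per gene with featureCounts by strand and divided counts by DESeq2 median-ratio size factors. The annotation used for counting is not given in the sources used here. The deposited unit is therefore a signal, a count scaled by 1 factor per library. Whole reads were recovered from its steps (100.0% whole within 0.01), with 34016445 to 56310712 per library. The lowest median of recovered reads of a gene over the libraries was 11, so that the deposited table lists no gene below that. Names and loci come from GENCODE M21 (14421 genes matched).

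Values were tested on log2(normalized count + 1) with limma 3.58.1 in R 4.3.3 (eBayes with trend), for genes with a mean of at least 10, two-sided, Benjamini-Hochberg over all genes. The glucose comparison used 8 libraries, the exosome comparisons 12 (PBS and BMDM–NG-exo combined, or 3 groups) and the interaction all 20. Calls in the glucose comparison and the interaction had no fold limit, and those in the exosome comparisons needed a log2 fold change of 0.15 or more in size. Exact permutation tests served single genes. Alternatives were pseudocounts of 0.5 and 10, no filter or a mean of at least 50, TMM factors, quantile normalization, no trend, edgeR 4.0.16, DESeq2 1.42.0, a replicate block, 1 fit of all libraries and leaving out each library. The test was checked on simulated data. The exosome libraries share dates by their labels, which pairs them; libraries of the same date had a mean correlation of deviations of 0.012 (12 pairs) against -0.004 for the others (36 pairs), and the block by date changed no call of the 10 genes.

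The genes named are all 10 genes in every group and, of 93 others on lists, those called in a comparison (the 12 with the smallest p where over 12 were called) and some defining genes that were not; 1 listed gene is not reported here and is in no count over the lists; the 3 most alike genes were found for each of the 10. The 10 genes and the lists were chosen with earlier results of these data known. DESeq2 gave no adjusted p to 6 of the listed others (Cp, Hp, Lcn2, Ltf, Slc22a17 and Spic) for BMDM–NG-exo against PBS, to 37 for BMDM–HG-exo against BMDM–NG-exo, and to Lcn2 and Slc22a17 for the combined controls and the interaction.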

Additional observations from a re-analysis of the deposited data

Results flagged for a closer look

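In 155 groups of 4 libraries a lone extreme value was searched for, and chance flags about 5% of groups. The groups flagged, all named here, did not exceed that share. One library stood apart for Slc11a1 with BMDM–HG-exo (lowest, 13735 normalized counts). Among the other iron and heme genes, one library stood apart for Fbxl5 with BMDM–NG-exo (lowest, 1948), Hfe with BMDM–NG-exo (lowest, 1985), Pcbp1 with PBS (lowest, 5361) and Slc48a1 with PBS (lowest, 6927), with BMDM–NG-exo (highest, 7499) and in normal glucose (lowest, 5261).

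The change in high glucose differed from that of BMDM–HG-exo against BMDM–NG-exo, by the interaction test, for 5 of the 10 genes, with differences of log2 fold changes of 0.53 (Hmox1), 0.47 (Tfrc), 0.16 (Ftl1), 0.15 (Fth1) and 0.15 (Slc11a1). It also differed for 6 of the 71 other genes, at 0.57 (Nubp2), 0.41 (Abcc1), 0.33 (Slc48a1), 0.31 (Blvrb), -0.22 (Flvcr1) and -0.57 (Hebp1). The same test called 4.74% of all genes. Flvcr1 kept its call in 9 of the 20 fits that left out 1 library. Without the trend in limma, Flvcr1 (adjusted p = 0.105) and Blvrb (adjusted p = 0.0617) were not called.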

How the results depend on the processing

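Of the values for named genes under the alternatives, 1086 of 1195 kept their direction and side of the threshold, 79 were no longer called, 4 became called, 25 uncalled values moved and 1 reversed (Ftl1 in the interaction, -0.047 with quantile normalization, where the cause was not tested). Without the trend in the spread, the genes called numbered 654 of all, 4 of the 10 and 6 of the 71 for high against normal glucose, 295, 0 and 0 for BMDM–HG-exo against PBS, 95, 1 and 0 for BMDM–NG-exo against PBS, and 324, 2 and 4 for the interaction, with 1 of all genes in each of the other contrasts. With a replicate block on the numbers that 2 pairs of glucose libraries share, 788, 2 (Hmox1 and Tfrc) and 5 were called. These numbers mark no known shared source (mean correlation of deviations 0.007 for the 2 pairs and -0.001 for the 14 others), but 2 pairs are too few to settle this. With the block only these 2 pairs inform the comparison. The log2 fold changes of the genes that lost their call were then 0.13 (Fth1), 0.14 (Ftl1), 0.16 (Slc11a1), 0.19 (Slc11a2) and -0.17 (Ncoa4). Why the calls were lost was not tested. Quantile normalization left 2 of the 10 called in the interaction. For the combined controls, all genes called numbered 52 with a pseudocount of 10, 19 with quantile normalization, 127 with DESeq2 and 322 (3 of the 71) in 1 fit of all libraries. For BMDM–HG-exo against BMDM–NG-exo they numbered 7 with a pseudocount of 10, 5 with a mean of at least 50, 1 with TMM, 1 with edgeR, 22 with DESeq2, 22 with the replicate block by date and 0 in 1 fit of all libraries. DESeq2 called 10 of the 71 in the interaction and 0 for BMDM–NG-exo against PBS, where Cp had no adjusted p, and a mean of at least 50 called 0 there. Leaving out 1 library gave 1370 to 2027 genes, 6 to 7 of the 10 and 10 to 19 of the 71 for high against normal glucose, 550 to 759, 1 to 3 and 2 to 6 for BMDM–HG-exo against PBS, 292 to 453, 1 to 3 and 0 to 4 for BMDM–NG-exo against PBS, 487 to 755, 2 to 5 and 5 to 7 for the interaction, 1 to 204, 0 and 0 for the combined controls and 1 to 7, 0 and 0 for BMDM–HG-exo against BMDM–NG-exo. The block by date changed no call of the 10 genes. Tfrc and Slc11a2, with 751 to 1606 reads, were the shallowest of the 10.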
